A study of Mus musculus with 7 samples.

Results

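The T cell receptor (TCR) complex and its signaling genes were followed by RNA-seq in CD4+CD25+ cells, which had been taken from mouse liver by flow cytometry. The set was a list of 42 named genes, which covers the receptor chains, coreceptors, proximal kinases and phosphatases, adaptors, second messenger enzymes, NF-kB and NFAT genes and brakes of the pathway. No measured value entered the listing rule. All 42 were found by symbol among the 53465 gene IDs of the count table, all 42 had counts in all 7 libraries, and all 42 were among the 14784 genes that passed the low-count filter.

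The TCR recognises peptide on MHC through its alpha and beta chains, and the CD3 and zeta chains carry the signal into the cell. LCK, brought in by CD4, phosphorylates these chains, ZAP-70 binds them and phosphorylates the scaffold LAT, and LAT gathers PLC-gamma1, SLP-76 and exchange factors. Calcium then activates NFAT, while diacylglycerol activates RAS and NF-kB. Regulatory T cells (Treg), which carry CD4 and CD25, need TCR signaling for their suppressive function, but activated conventional CD4 T cells also carry CD25, so the gate can hold both.

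KO_MCD stands for CD73 KO mice on a methionine/choline-deficient diet (3 libraries). WT_MCD stands for wild type C57BL/6 mice on that deficient diet (2 libraries). WT_NCD stands for wild type C57BL/6 mice on a normal control diet (2 libraries). Each diet was given for 4 weeks, and the deficient diet serves as a common model of steatohepatitis. CD73, encoded by Nt5e, produces extracellular adenosine from AMP. The strain of the knockout mice, the deleted part of the gene, age and sex are not given in the labels, and knockout mice on the control diet were not analysed here. Nothing in the labels says that the libraries of a group are separate animals, and the p-values therefore reflect the spread among libraries, which could be technical.

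Values are read counts scaled to library size (CPM) with TMM-scaled library sizes, from total counts of 19731501 to 24398738 per library. The floor of 3 counts was worth 0.129 to 0.158 CPM, which covers counting error only. Nt5e had 5.88, 14.5 and 6.43 CPM in KO_MCD, 177 and 87.6 CPM in WT_MCD, compared with 243 and 241 CPM in WT_NCD, so the knockout libraries were the lowest. Genes were tested by edgeR's quasi-likelihood method, adjusted over all tested genes after Benjamini and Hochberg, with a threshold of 0.05. Fold changes are log2 values of the first-named group over the second, and "apart" means that all libraries of one group lay above all libraries of the other. In bulk RNA, fewer T cells in a sort and less RNA of a gene per T cell cannot be told apart.

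Promoters are shown for 4 members: Cd3d and Cd3g, a neighbouring pair of CD3 genes, and Cd27 and Txk, whose levels differed most by p in KO_MCD against WT_NCD. Each window covers 250 bases before to 50 bases after the gene start in RefSeq (GRCm38.p6), written 5′ to 3′ on the gene's strand, and such an entry was matched for 30 of the 42 members. Capitals mark matches, on either strand, to GGAAGT (an ETS core), CAGGTG (an E-box), CTTTGA (a TCF/LEF core), TGTGGT (a RUNX core) and GGAAAA (an NFAT core).
Cd3d, chr9:44981536-44981835 (+): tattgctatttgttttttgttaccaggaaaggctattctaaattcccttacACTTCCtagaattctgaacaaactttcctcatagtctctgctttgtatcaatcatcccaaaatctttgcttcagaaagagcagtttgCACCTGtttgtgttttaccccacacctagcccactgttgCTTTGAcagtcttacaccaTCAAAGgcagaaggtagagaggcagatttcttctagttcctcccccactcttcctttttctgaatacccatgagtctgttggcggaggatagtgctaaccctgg
Cd3g, chr9:44980382-44980681 (-): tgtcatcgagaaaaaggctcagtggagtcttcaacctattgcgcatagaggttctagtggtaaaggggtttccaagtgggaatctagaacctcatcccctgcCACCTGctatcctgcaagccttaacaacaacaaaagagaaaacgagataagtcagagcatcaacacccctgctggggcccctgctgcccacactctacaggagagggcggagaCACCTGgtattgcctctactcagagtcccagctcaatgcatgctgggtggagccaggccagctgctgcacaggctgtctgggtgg
Cd27, chr6:125236978-125237277 (-): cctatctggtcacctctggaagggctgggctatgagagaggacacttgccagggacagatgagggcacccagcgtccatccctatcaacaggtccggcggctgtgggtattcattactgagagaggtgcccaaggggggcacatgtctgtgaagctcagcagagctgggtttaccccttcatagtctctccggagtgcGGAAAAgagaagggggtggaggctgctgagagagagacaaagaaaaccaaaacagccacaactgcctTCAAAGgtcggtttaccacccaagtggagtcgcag
Txk, chr5:72752728-72753027 (-): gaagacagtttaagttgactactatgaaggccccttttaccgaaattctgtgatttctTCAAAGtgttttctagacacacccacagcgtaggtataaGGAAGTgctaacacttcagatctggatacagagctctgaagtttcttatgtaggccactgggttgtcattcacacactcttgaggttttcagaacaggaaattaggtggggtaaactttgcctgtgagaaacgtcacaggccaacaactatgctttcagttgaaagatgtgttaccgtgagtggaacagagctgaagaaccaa
The Cd3d window held 1 ETS, 1 E-box and 2 TCF/LEF matches, and the Cd3g window held 2 E-box matches. The Cd27 window held 1 TCF/LEF and 1 NFAT match, and the Txk window 1 ETS and 1 TCF/LEF match. Over the 30 members with an entry, the ETS letters were in 15 (50%), against 23.8% of all 32851 promoter windows. The E-box letters were in 13 (43.3%), against 20.2% of all windows, and the TCF/LEF letters were in 12 (40%), against 16.003%. The RUNX letters were in 3 (10%), against 16.8%, and the NFAT letters were in 6 (20%), against 23.4%. A match of letters describes the window only.

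The TCR constant region genes were among the 4 most abundant members per length, and the CD3 and zeta genes lay further down. Over the 7 libraries Trac averaged 2639 CPM per kb of exon, Trbc2 1668 CPM per kb and Trbc1 706 CPM per kb, with the adhesion receptor gene Cd2 at 1165 CPM per kb between the 2 beta constant genes. On the same scale Lck averaged 263, Cd4 258, Cd3d 184, Lat 183, Zap70 94.3, Cd3g 74.5, Cd247 56.1 and Cd3e 45.4 CPM per kb. The lowest members were Txk with 4.47, Nfatc2 with 3.23 and Sh2d1a with 0.882 CPM per kb. Cd4, which the label of the cells names, and the CD3 genes were counted in every library, but markers of other cells were counted too.

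The 7 receptor chain genes had lower group means in KO_MCD and WT_MCD than in WT_NCD with TMM scaling. None differed past the threshold in edgeR, and DESeq2 called 1 of them, Trbc2, in KO_MCD against WT_NCD. Trac (ENSMUSG00000076928, chromosome 14, 54220521 to 54224206, GRCm38) encodes the constant region of the alpha chain. It had 1858, 2203 and 1861 CPM in KO_MCD, 3513 and 1521 CPM in WT_MCD, compared with 2622 and 3692 CPM in WT_NCD. WT_MCD replicate 1 was near the top of the Trac range and WT_MCD replicate 2 was the lowest of all libraries, so WT_MCD overlapped both other groups. Trbc1 (ENSMUSG00000076490, chromosome 6, 41538218 to 41539881) and Trbc2 (ENSMUSG00000076498, chromosome 6, 41546730 to 41548352) encode the 2 alternative beta constant regions and lie 6848 bases apart. Their sequences are nearly the same, so how reads were divided between them is uncertain. Trbc1 had 359, 467 and 413 CPM in KO_MCD, 484 and 322 CPM in WT_MCD, compared with 611 and 1044 CPM in WT_NCD. Trbc2 had 874, 756 and 1037 CPM in KO_MCD, 1026 and 709.5 CPM in WT_MCD, compared with 1484 and 2194 CPM in WT_NCD. For both beta genes every library on the deficient diet lay below both WT_NCD libraries. The WT_MCD against WT_NCD fold change was -1.04 (SE 0.36) for Trbc1 and -1.08 (SE 0.33) for Trbc2 on the log2 scale, with edgeR adjusted p-values of 0.779 and 0.746. For Trac it was -0.33 (SE 0.41).

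The ratio of alpha to beta constant region CPM, Trac over the sum of Trbc1 and Trbc2, was 1.51, 1.80 and 1.28 in KO_MCD, 2.33 and 1.47 in WT_MCD, compared with 1.25 and 1.14 in WT_NCD. All 5 libraries on the deficient diet thus lay above both WT_NCD libraries in this ratio, which was computed after the values were seen and has no test. Trbc2 over Trbc1 was 2.43, 1.62 and 2.51 in KO_MCD, 2.12 and 2.20 in WT_MCD, compared with 2.43 and 2.101 in WT_NCD, with all groups overlapping.

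Cd3g, Cd3d and Cd3e, which encode the signaling chains of the complex, lie side by side on chromosome 9. Cd3g (44969572 to 44980431) and Cd3d (44981786 to 44987339) point away from each other with starts 1355 bases apart, and Cd3e follows at 44998740 to 45009627. Cd3d had 243, 188 and 386 CPM in KO_MCD, 295 and 254 CPM in WT_MCD, compared with 374 and 593 CPM in WT_NCD. Cd3g had 195, 147 and 268 CPM in KO_MCD, 237 and 169 CPM in WT_MCD, compared with 286 and 402 CPM in WT_NCD. Cd3e had 138, 269 and 169 CPM in KO_MCD, 189 and 93.5 CPM in WT_MCD, compared with 135 and 303 CPM in WT_NCD. WT_NCD replicate 2 was the highest library for all 3 genes, whereas the lowest was KO_MCD replicate 2 for Cd3d and Cd3g but WT_MCD replicate 2 for Cd3e. Cd247 encodes the zeta chain, which carries most of the complex's phosphorylation motifs. It had 185, 201 and 280.1 CPM in KO_MCD, 307 and 177 CPM in WT_MCD, compared with 343 and 601 CPM in WT_NCD. All 5 libraries on the deficient diet lay below both WT_NCD libraries for Cd247. The WT_MCD against WT_NCD log2 fold changes were -0.82 (SE 0.41) for Cd3d, -0.76 (SE 0.38) for Cd3g, -0.63 (SE 0.54) for Cd3e and -0.96 (SE 0.42) for Cd247. Exons of Cd3e overlap an opposite-strand gene, and exons of Cd247 overlap genes on both strands, so without a stated strand setting their reads cannot be told apart from those genes' reads. The same doubt holds for 14 of the 42 members in all, which also include Cd27, Lck and Lat (microRNA genes on the same strand) and Ptpn6, Lcp2, Skap1, Themis, Sh2d1a, Plcg1, Dgka, Dgkz and Nfatc3 (genes on the other strand).

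**Figure D1:**
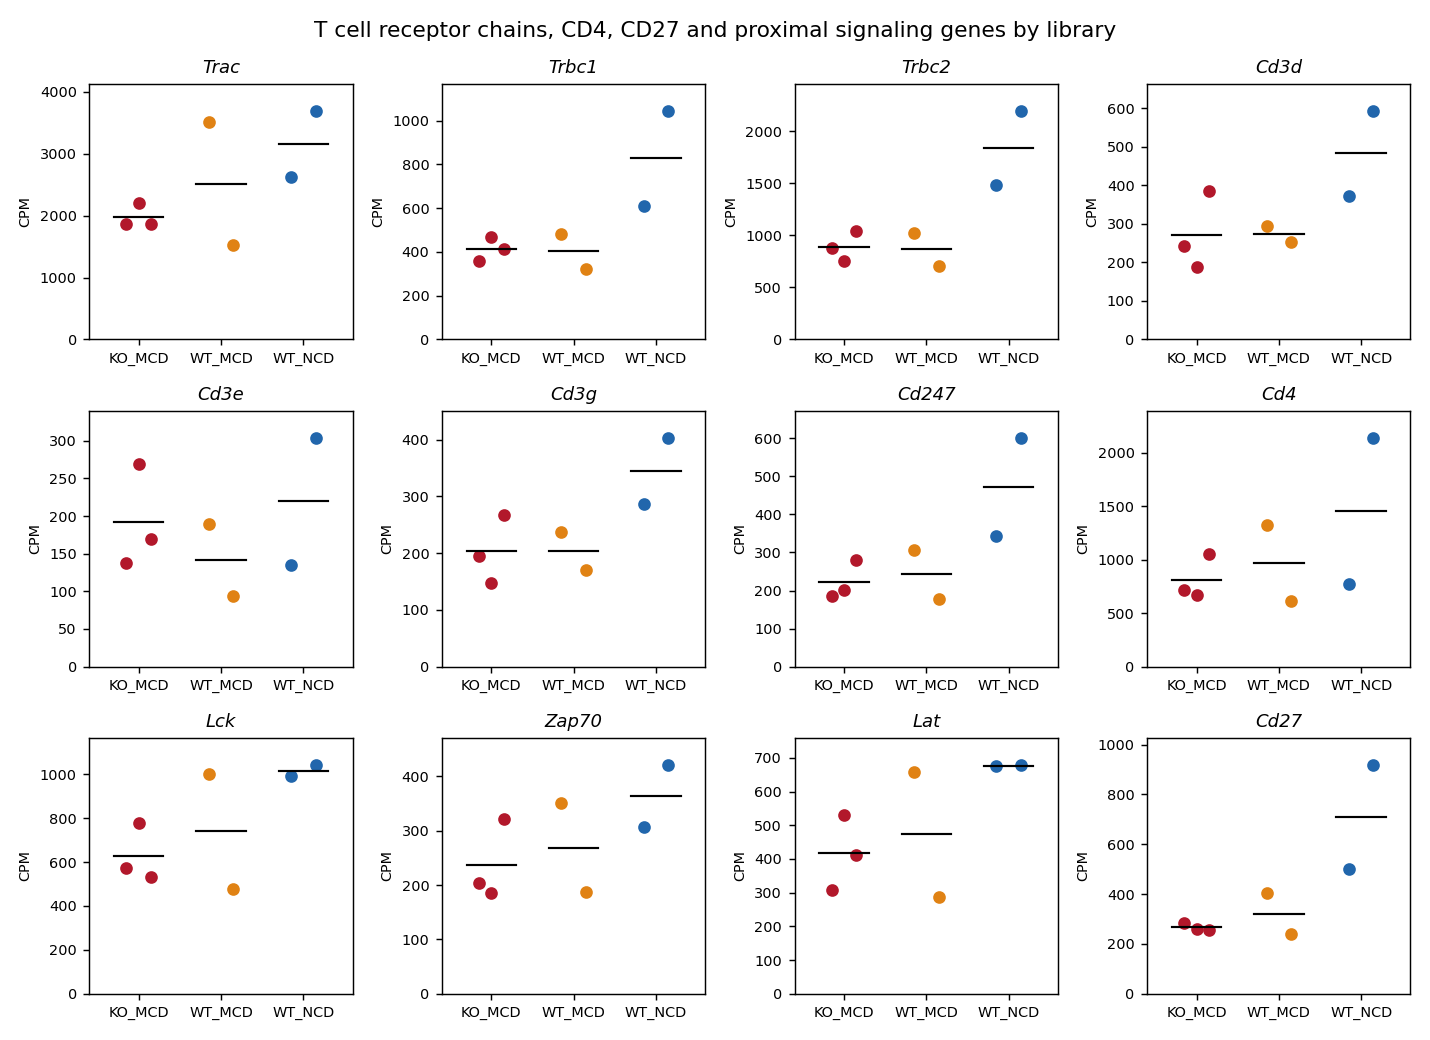
Scaled read counts (CPM, y axes) of the receptor chain genes and proximal genes in each library, by group (x axes: KO_MCD, WT_MCD and WT_NCD); each point is 1 library and each bar a group mean. Trbc1, Trbc2, Cd3g, Cd247, Lat and Cd27 sit lower in all 5 libraries on the deficient diet than in both WT_NCD libraries. For Trac only WT_MCD overlaps WT_NCD, while for Cd3e and Cd4 both KO_MCD and WT_MCD do.

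The 7 chains had a median log2 fold change of -0.82 in WT_MCD against WT_NCD and of -0.83 in KO_MCD against WT_NCD, with 7 of 7 below 0 in each. In KO_MCD against WT_MCD the median was -0.0017, with 4 of 7 below 0. Both comparisons with WT_NCD use the same 2 control libraries, so the likeness of their values is no independent support. With library sizes set by the sum of Cd3d, Cd3e and Cd3g, Trac was 0.35 in WT_MCD against WT_NCD, so its direction depends on the scaling. Cd3e was 0.13 there, beside -0.041 for Cd3d and -0.029 for Cd3g. As these 3 genes set the scale, the sign of Cd3e is partly built in.

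WT_MCD against WT_NCD asks how the sorted cells differ on the deficient diet. Of the 42 members, 0 passed the threshold in edgeR and 0 in DESeq2, against a background of 0.0% of all genes in edgeR and 2.14% in DESeq2, and the smallest edgeR adjusted p among members was 0.721. At an unadjusted p under 0.05, 8 members passed, against 6.0% of all genes. These were 7 lower members (Cd27, Dgka, Prkcq, Skap1, Trbc1, Trbc2 and Txk; background 2.04%) and 1 higher member (Nfatc1; background 3.96%). The groups stood apart for 14 members lower in WT_MCD (background 14.8%) and for 3 higher in WT_MCD (background 16.8%). The fold change was below 0 for 31 of 42, or 73.8%, against 47.2% of all genes. The median log2 fold change was -0.45 over the members and 0.045 over all genes.

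These counts rested on single libraries. The number of lower members at an unadjusted p under 0.05 was 15 when WT_MCD replicate 1 was left out, but 1 when WT_MCD replicate 2 or WT_NCD replicate 2 was. The members' median was -0.96, -0.059 and -0.26 with these 3 libraries left out in that order. WT_MCD replicate 2 was the lowest library for 20 of the 42 members and WT_NCD replicate 2 was the highest for 20.

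Markers of other cells also differed between the libraries. The summed CPM of 15 macrophage markers, led by Lyz2, was 12875, 9694 and 7494 CPM in KO_MCD, 2461 and 33332 CPM in WT_MCD, compared with 11161 and 1184 CPM in WT_NCD. The library with the most macrophage RNA, WT_MCD replicate 2, was the lowest in more members than any other library, and the library with the least, WT_NCD replicate 2, was the highest in more members than any other. Of these 15 genes only Timd4 was at 0 in any library. The 42 members summed to 16196, 17356 and 17240 CPM in KO_MCD, 23178 and 14136 CPM in WT_MCD, compared with 22857 and 29121 CPM in WT_NCD. The 2 sums were not opposite in all libraries. WT_NCD replicate 1 exceeded KO_MCD replicate 3 in macrophage CPM (11161 against 7494) and in members' CPM (22857 against 17240). The 10 B cell markers, led by Cd79b, summed to 405 to 1358 CPM in KO_MCD, 202 to 359 CPM in WT_MCD, compared with 118 to 179 CPM in WT_NCD. The 8 plasmacytoid dendritic cell markers, led by Irf8, summed to 718 to 1812 CPM in KO_MCD, 674 to 1114 CPM in WT_MCD, compared with 237 to 331 CPM in WT_NCD. All KO_MCD and all WT_MCD libraries lay above both WT_NCD libraries in the B cell and the plasmacytoid dendritic cell sum. The 12 NK and cytotoxic markers, led by Gzmb, summed to 708 to 778 CPM in KO_MCD, 899.5 to 910 CPM in WT_MCD, compared with 345 to 744 CPM in WT_NCD, where Ncr1, Klre1, Klra8 and Eomes had no count in both libraries. The 10 hepatocyte markers, led by Ass1, summed to 167 to 237 CPM in KO_MCD, 255 to 274 CPM in WT_MCD, compared with 331 to 575 CPM in WT_NCD. Of these markers only Ass1 was counted in every library, so this sum cannot be read as a measure of hepatocyte RNA. No count was found for 7 hepatocyte markers in all of KO_MCD (Apoa1, Apob, Ttr, Serpina1c, Cps1, Fgb and Tat), for 2 in all of WT_MCD (Apob and Cps1), and for 2 in all of WT_NCD (Apob and Cyp2e1). Of 5 CD8 and gamma delta T cell markers 3 were matched, led by Cd8b1, with sums of 81.1 to 90.1 CPM in KO_MCD, 19.1 to 103 CPM in WT_MCD, compared with 23.2 to 33.2 CPM in WT_NCD. The part of these cells in the members' differences was not tested.

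Among coreceptors and accessory receptors, Cd27 stood out by p and Cd4 did not. Cd27 encodes a costimulatory TNF receptor family member. It had 282, 260.1 and 255 CPM in KO_MCD, 403 and 238 CPM in WT_MCD, compared with 501 and 917 CPM in WT_NCD, so all 5 libraries on the deficient diet lay below both WT_NCD libraries. Its log2 fold change was -1.15 (SE 0.39) in WT_MCD against WT_NCD (edgeR adjusted p = 0.777) and -1.41 (SE 0.35) in KO_MCD against WT_NCD (edgeR adjusted p = 0.347). Cd4, the coreceptor used for the sort, had 716, 665 and 1048 CPM in KO_MCD, 1324 and 609.7 CPM in WT_MCD, compared with 773 and 2137 CPM in WT_NCD. The 3 groups overlapped for Cd4, and the 2 WT_NCD libraries lay far apart. The log2 fold change was -0.59 (SE 0.56) in WT_MCD against WT_NCD. Cd5 encodes a receptor that dampens TCR signals. It had 498, 636 and 642 CPM in KO_MCD, 1024 and 529 CPM in WT_MCD, compared with 888 and 1309 CPM in WT_NCD. The other receptors were Cd2, Cd6, Cd28 and Thy1, with log2 fold changes of -0.52 to 0.046 in WT_MCD against WT_NCD and of -0.80 to -0.22 in KO_MCD against WT_NCD.

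Among kinases and phosphatases, Txk had the smallest p in both comparisons with WT_NCD. Txk encodes a TEC family kinase of T cells. It had 33.2, 29.0 and 25.3 CPM in KO_MCD, 51.9 and 34.1 CPM in WT_MCD, compared with 102 and 66.9 CPM in WT_NCD, and the libraries on the deficient diet were all below WT_NCD. Lck, the kinase that starts the cascade, had 572, 779.6 and 533 CPM in KO_MCD, 1004 and 477 CPM in WT_MCD, compared with 993 and 1041 CPM in WT_NCD. Zap70 had 203, 185 and 322 CPM in KO_MCD, 351 and 187 CPM in WT_MCD, compared with 306 and 420.3 CPM in WT_NCD. WT_MCD replicate 1 reached the WT_NCD range for both Lck and Zap70, while WT_MCD replicate 2 was as low as the KO_MCD libraries. The log2 fold changes in WT_MCD against WT_NCD were -0.98 (SE 0.40) for Txk, -0.46 (SE 0.39) for Lck and -0.43 (SE 0.42) for Zap70. Without WT_MCD replicate 1 these were -1.11 for Lck and -0.97 for Zap70, and without WT_MCD replicate 2 they were -0.018 for Lck and -0.050 for Zap70. Ptprc encodes the phosphatase CD45, which is made by nearly all blood cells of the immune system. It had 3336, 3085 and 2367 CPM in KO_MCD, 3495 and 2507 CPM in WT_MCD, compared with 4856 and 4335 CPM in WT_NCD. Ptpn6 encodes SHP-1, a phosphatase that dampens TCR signaling and is also abundant in myeloid cells. It had 368, 374 and 287 CPM in KO_MCD, 251 and 529 CPM in WT_MCD, compared with 253 and 253 CPM in WT_NCD. Its highest value was in WT_MCD replicate 2, the library with the most macrophage RNA. Ptpn22, another phosphatase that restrains the pathway, overlapped between all groups at 225 to 646 CPM.

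Of the 7 adaptor genes, 6 had a fold change below 0 in WT_MCD against WT_NCD and 6 in KO_MCD against WT_NCD. Lat, the membrane scaffold, had 308, 530.3 and 413 CPM in KO_MCD, 659 and 288 CPM in WT_MCD, compared with 675 and 678 CPM in WT_NCD. WT_MCD replicate 1 nearly reached the WT_NCD level of Lat, and all 5 libraries on the deficient diet lay below both WT_NCD libraries. The WT_MCD against WT_NCD log2 fold change of Lat was -0.51 (SE 0.44), with -1.25 when WT_MCD replicate 1 was left out and -0.035 when WT_MCD replicate 2 was. Skap1 encodes an adaptor that links the TCR to integrins. It had 106, 93.8 and 126 CPM in KO_MCD, 113 and 102 CPM in WT_MCD, compared with 175 and 205 CPM in WT_NCD, and these groups stood apart in both comparisons with WT_NCD. Themis encodes a T lineage adaptor known for its part in thymocyte selection. It had 92.6, 74.1 and 168 CPM in KO_MCD, 118 and 73.9 CPM in WT_MCD, compared with 35.0 and 94.5 CPM in WT_NCD. Themis went the other way from most members but overlapped between groups. Lcp2, which encodes the adaptor SLP-76, had 796, 835 and 819 CPM in KO_MCD, 1100 and 1079 CPM in WT_MCD, compared with 886 and 1419 CPM in WT_NCD. Lcp2 is also expressed in myeloid cells, and its 3 KO_MCD libraries lay close together below the 4 wild type libraries. Trat1, an adaptor that associates with the TCR, had 23.7, 10.7 and 50.4 CPM in KO_MCD, 64.4 and 36.4 CPM in WT_MCD, compared with 89.1 and 82.1 CPM in WT_NCD. Sit1, an inhibitory transmembrane adaptor, had 111, 133 and 154 CPM in KO_MCD, 259 and 151 CPM in WT_MCD, compared with 210.2 and 212 CPM in WT_NCD. Both WT_NCD libraries were above all 3 KO_MCD libraries for Trat1 and for Sit1, and only for Trat1 were they also above both WT_MCD libraries. Sh2d1a, which encodes SAP, was too low to be read closely, with 0.453 to 10.6 CPM over the 7 libraries.

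The second messenger enzymes Dgka and Prkcq were among the 3 members with the smallest p-values in WT_MCD against WT_NCD, with Trbc2 between them. Dgka encodes a kinase that removes diacylglycerol and so limits RAS signaling. It had 158, 191 and 118 CPM in KO_MCD, 162 and 123 CPM in WT_MCD, compared with 276 and 364 CPM in WT_NCD. Prkcq encodes PKC-theta, the diacylglycerol-responsive kinase upstream of NF-kB in T cells. It had 135, 149 and 196 CPM in KO_MCD, 144 and 171 CPM in WT_MCD, compared with 264 and 340.1 CPM in WT_NCD. For both genes all 5 libraries on the deficient diet lay below both WT_NCD libraries. The WT_MCD against WT_NCD log2 fold change was -1.17 (SE 0.34) for Dgka (edgeR adjusted p = 0.721) and -0.94 (SE 0.31) for Prkcq (edgeR adjusted p = 0.777). Exons of Dgka overlap Pmel on the other strand. Vav1, an exchange factor that is expressed across blood cells, had 266, 265 and 199 CPM in KO_MCD, 229.6 and 294 CPM in WT_MCD, compared with 177 and 173 CPM in WT_NCD. Vav1 was higher in all 5 libraries on the deficient diet, with a log2 fold change of 0.58 (SE 0.29) in WT_MCD against WT_NCD. Rasgrp1, the RAS exchange factor, had 259, 256 and 234 CPM in KO_MCD, 284 and 155 CPM in WT_MCD, compared with 265 and 287 CPM in WT_NCD. Plcg1 and Dgkz overlapped between all groups, at 21.3 to 58.2 CPM for Plcg1 and 57.6 to 142 CPM for Dgkz.

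The NFAT genes Nfatc1 and Nfatc2 had higher group means on the deficient diet, against the direction of the receptor chains. Nfatc1 and Nfatc2 encode calcium-regulated transcription factors, and a short Nfatc1 isoform is known to be induced by NFAT itself in activated lymphocytes. Nfatc1 had 293, 185 and 288 CPM in KO_MCD, 325 and 260.1 CPM in WT_MCD, compared with 163 and 170.3 CPM in WT_NCD, with all 5 libraries on the deficient diet above both WT_NCD libraries. Nfatc2 had 17.3, 30.9 and 45.02 CPM in KO_MCD, 71.2 and 32.0 CPM in WT_MCD, compared with 14.9 and 27.5 CPM in WT_NCD. For Nfatc2 both WT_MCD libraries lay above both WT_NCD libraries and KO_MCD overlapped with each. The WT_MCD against WT_NCD log2 fold change was 0.81 (SE 0.32) for Nfatc1 (edgeR adjusted p = 0.808) and 1.28 (SE 0.63) for Nfatc2 (edgeR adjusted p = 0.808). Nfatc3 had 80.2, 65.6 and 45.7 CPM in KO_MCD, 67.3 and 26.1 CPM in WT_MCD, compared with 66.5 and 37.3 CPM in WT_NCD. Malt1 and Bcl10, partners in the complex that links PKC-theta to NF-kB, overlapped between all groups at 51.3 to 178 CPM for Malt1 and 79.4 to 172 CPM for Bcl10.

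Per 100 CPM of Cd3d, Cd3e and Cd3g together, Nfatc1 had 50.9, 30.6 and 35.0 in KO_MCD, 44.9 and 50.3 in WT_MCD, compared with 20.5 and 13.1 in WT_NCD. On that scale Themis had 16.1, 12.3 and 20.5 in KO_MCD, 16.4 and 14.3 in WT_MCD, compared with 4.40 and 7.27 in WT_NCD. Nfatc2 had 3.003, 5.13 and 5.47 in KO_MCD, 9.86 and 6.20 in WT_MCD, compared with 1.87 and 2.12 in WT_NCD. All 5 libraries on the deficient diet lay above both WT_NCD libraries for each of these 3 genes. The same held for Vav1, Ptpn6, Fyn, Bcl11b and Ubash3a, by narrow margins for Bcl11b and Ubash3a. The share of all genes apart on this scale was not computed. Which members stood apart on it, above or below, is therefore no result about them. Trbc2 on the same scale had 152, 125 and 126 in KO_MCD, 142 and 137 in WT_MCD, compared with 187 and 169 in WT_NCD, still below both WT_NCD libraries in all 5. Cd247 and Cd27 also stayed below both WT_NCD libraries in all 5. With CD3-set library sizes the median of all genes in WT_MCD against WT_NCD moved to 0.78 on the log2 scale and that of the members to 0.20. At an unadjusted p under 0.05, 5 members were then higher in WT_MCD against WT_NCD (Nfatc1 1.501, Nfatc2 2.01, Themis 1.39, Ptpn6 1.42 and Vav1 1.32) and 0 were lower. With this scaling 11.5% of all genes were higher and 0.291% lower by the same rule, so the members' count was near the background. In KO_MCD against WT_NCD these were 4 (Nfatc1 1.21, Nfatc2 1.18, Themis 1.48 and Vav1 1.097), with 0 lower and medians of 0.67 for all genes and 0.011 for the members. There 10% of all genes were higher and 1.33% lower, so this count too was near the background. None passed after adjustment over all genes.

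**Figure D2:**
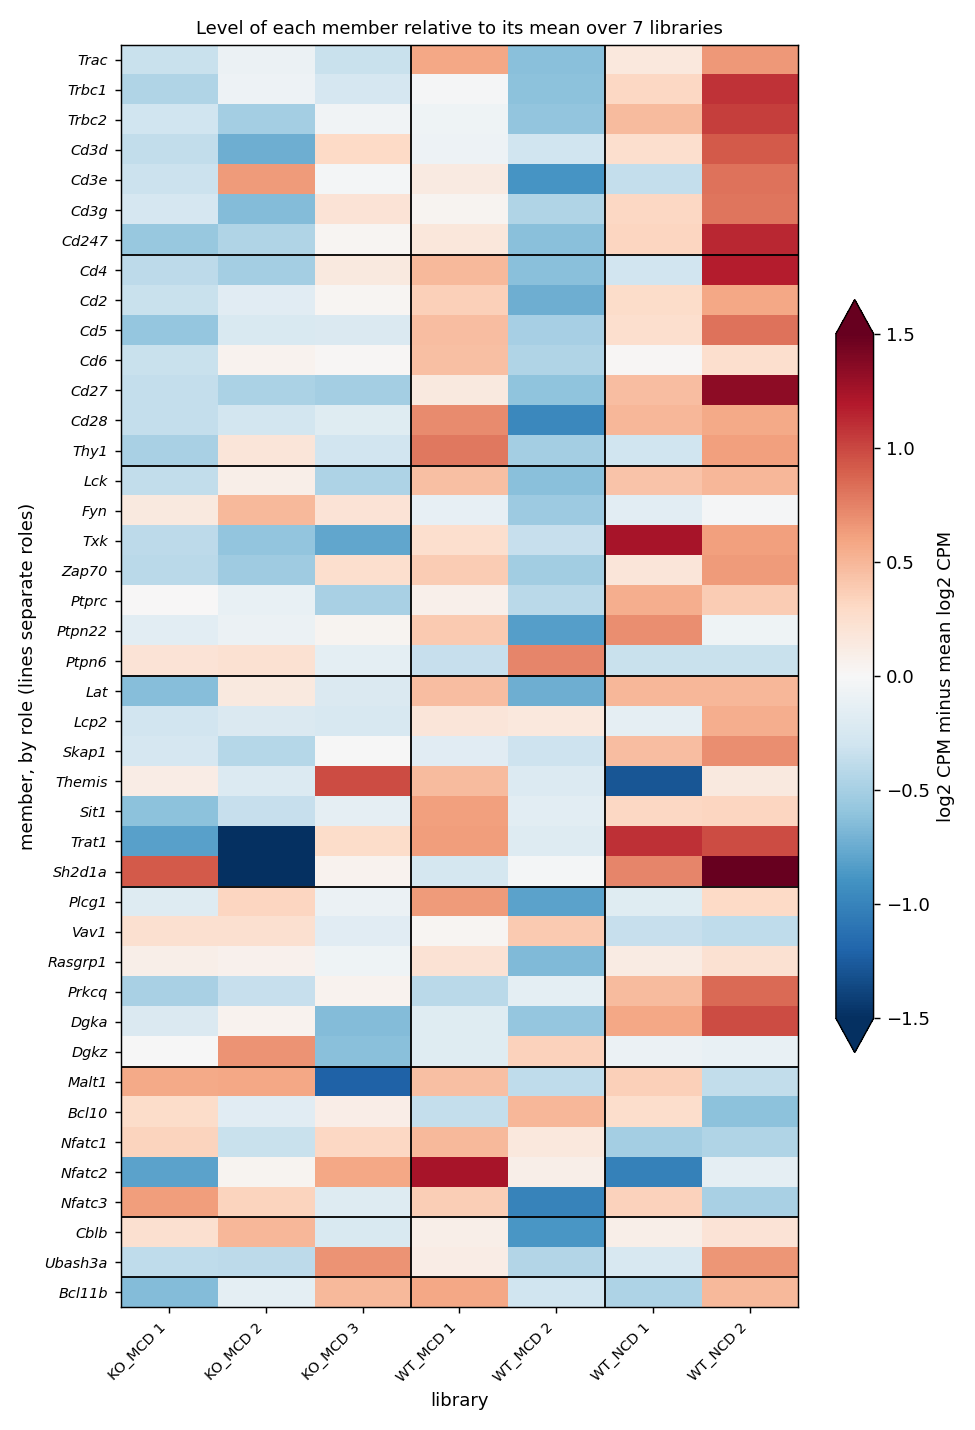
Log2 CPM of the 42 members (rows, by role) in each library (columns: KO_MCD, WT_MCD, WT_NCD) relative to each member's mean over the 7 libraries, with the colour scale capped at 1.5 in either direction. Most rows are highest in the WT_NCD columns, and WT_MCD replicate 2 is the lowest library for 20 of the 42 members.

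KO_MCD against WT_MCD asks what the loss of CD73 adds on the deficient diet. Of the 42 members, 0 passed the threshold in edgeR and 0 in DESeq2 (background 0.0% in edgeR and 0.34% in DESeq2), and 0 passed at an unadjusted p under 0.05 (background 3.25% in either direction, 2.04% lower and 1.2% higher). The fold change was below 0 for 26 of 42, or 61.9%, against 51.9% of all genes. The groups stood apart for 2 members lower in KO_MCD, Txk and Lcp2 (background 9.66%), and for 1 higher, Fyn (background 8.37%). The median log2 fold change was -0.059 over the members and -0.032 over all genes. Leaving out WT_MCD replicate 1 gave a median of 0.37 and leaving out WT_MCD replicate 2 gave -0.31, so its direction rested on which WT_MCD library was used.

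The intervals around these fold changes were wide. The 95% interval of the KO_MCD against WT_MCD log2 fold change was -1.23 to 0.52 for Trac, -0.73 to 0.80 for Trbc1, -0.67 to 0.74 for Trbc2 and -0.89 to 0.86 for Cd3d. The same interval was -1.07 to 0.60 for Lck, -1.08 to 0.72 for Zap70 and -1.11 to 0.75 for Lat. The 5 members with the smallest p among those lower in KO_MCD were Sit1 at -0.63 (SE 0.31), Lcp2 at -0.42 (SE 0.27), Txk at -0.56 (SE 0.36), Trat1 at -0.83 (SE 0.61) and Nfatc2 at -0.73 (SE 0.56) on the log2 scale. Sit1 had the smallest p of all members, 0.080 before adjustment and 1 after it in edgeR.

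Fyn, the second SRC family kinase of the TCR pathway, had 43.5, 55.0 and 45.3 CPM in KO_MCD, 36.1 and 26.9 CPM in WT_MCD, compared with 35.3 and 38.8 CPM in WT_NCD. All 3 KO_MCD libraries lay above all 4 wild type libraries for Fyn, by a narrow margin, with a KO_MCD against WT_MCD log2 fold change of 0.61 (SE 0.34) and an interval of -0.18 to 1.40. Per length, Lck exceeded Fyn by a factor of 19.6, 21.1 and 17.5 in KO_MCD, 41.4 and 26.4 in WT_MCD, compared with 41.97 and 39.96 in WT_NCD. This ratio was formed after the values were seen and has no test. Cblb, which encodes a ubiquitin ligase that restrains T cell activation, had 142, 169 and 102 CPM in KO_MCD, 128 and 65.5 CPM in WT_MCD, compared with 128 and 138 CPM in WT_NCD. Its log2 fold change was 0.51 (SE 0.38) in KO_MCD against WT_MCD. On the higher side Cd3e had 0.44 (SE 0.50), Nfatc3 0.45 (SE 0.51) and Rasgrp1 0.18 (SE 0.31) in that comparison. Ubash3a, another brake, and Bcl11b, a T lineage transcription factor, overlapped between all groups at 146 to 317 CPM for Ubash3a and 86.4 to 203 CPM for Bcl11b.

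**Figure D3:**
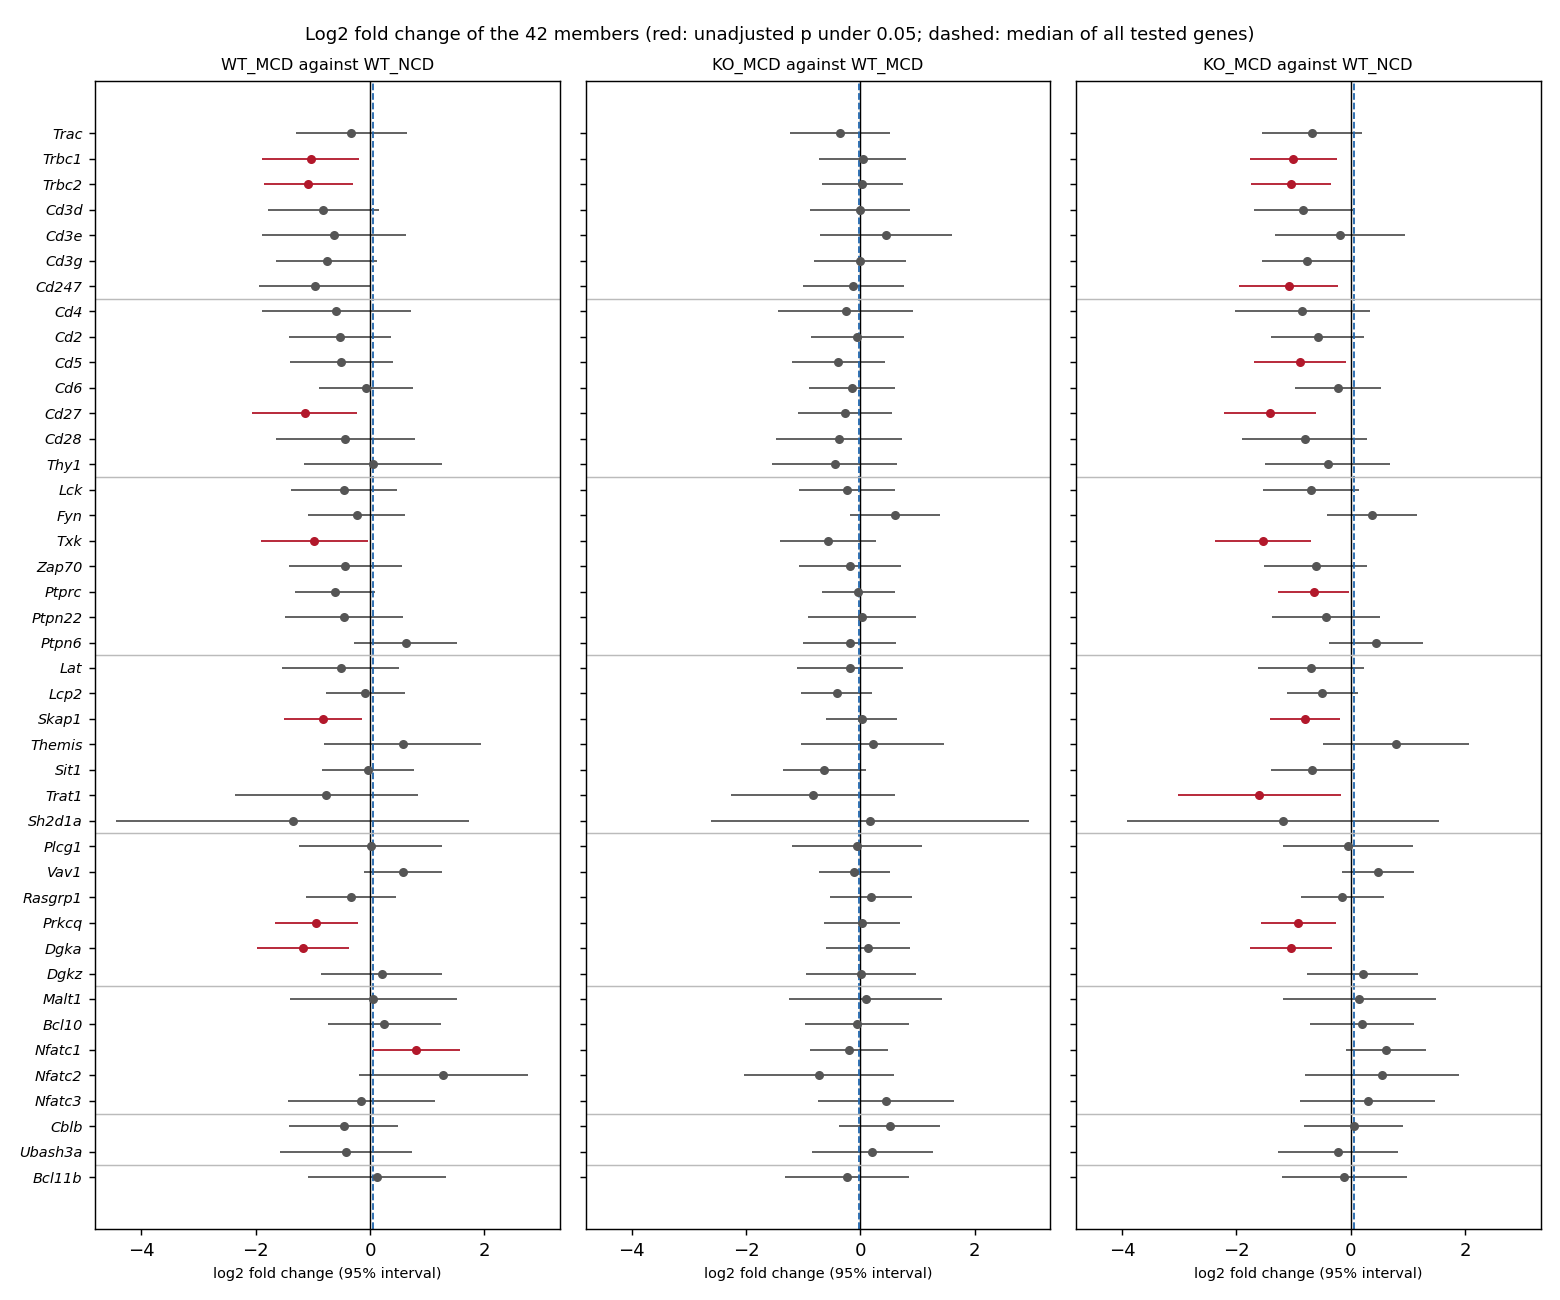
Log2 fold changes of the 42 members (points, by role) with 95% intervals (bars) in WT_MCD against WT_NCD, KO_MCD against WT_MCD and KO_MCD against WT_NCD (x axes, log2; first-named group over second). The medians are -0.45, -0.059 and -0.60, and no member passed an edgeR adjusted p of 0.05.

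KO_MCD against WT_NCD sets the knockout on the deficient diet beside wild type on the control diet, so diet and genotype cannot be told apart in it. Of the 42 members 0 passed in edgeR (background 0.0%), where the smallest adjusted p was 0.326 for Txk. DESeq2 called 3 members, all lower in KO_MCD, which were Trbc2 at -1.03 (DESeq2 adjusted p = 0.0465), Cd27 at -1.39 (DESeq2 adjusted p = 0.0126) and Txk at -1.53 (DESeq2 adjusted p = 0.0180). The DESeq2 background in this comparison was 4.07% of the genes it gave an adjusted p. At an unadjusted edgeR p under 0.05, 11 members passed, against 8.97% of all genes. All 11 were lower (Cd247, Cd27, Cd5, Dgka, Prkcq, Ptprc, Skap1, Trat1, Trbc1, Trbc2 and Txk; background 4.25%) and 0 were higher (background 4.72%). The groups stood apart for 20 members lower in KO_MCD (background 12.8%) and 4 higher, Fyn, Ptpn6, Vav1 and Nfatc1 (background 13.4%). The fold change was below 0 for 31 of 42, or 73.8%, against 46.9% of all genes. The median was -0.60 over the members and 0.056 over all genes, and with WT_NCD replicate 2 left out it was -0.39 over the members and 0.19 over all genes.

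The edgeR log2 fold changes of KO_MCD against WT_NCD were -1.54 (SE 0.36) for Txk, -1.60 (SE 0.61) for Trat1, -1.09 (SE 0.37) for Cd247, -1.05 (SE 0.30) for Trbc2, -1.04 (SE 0.31) for Dgka, -1.003 (SE 0.32) for Trbc1 and -0.91 (SE 0.28) for Prkcq. They were 0.61 (SE 0.30) for Nfatc1, 0.79 (SE 0.55) for Themis, 0.47 (SE 0.27) for Vav1, 0.44 (SE 0.35) for Ptpn6 and 0.37 (SE 0.34) for Fyn on the higher side. The count of 11 lower members was 2 without WT_NCD replicate 2 (Cd27 and Txk), 4 without KO_MCD replicate 1, 6 without KO_MCD replicate 2 and 17 without WT_MCD replicate 2, a library that enters this comparison only through the shared fit. Cd27 and Txk thus remained at an unadjusted p under 0.05 in each of these 4.

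By role, the medians of KO_MCD against WT_NCD were -0.80 for the 7 coreceptors and accessory receptors, -0.62 for the 7 kinases and phosphatases, -0.70 for the 7 adaptors, -0.097 for the 6 second messenger genes and 0.30 for the 5 NF-kB and NFAT genes. In WT_MCD against WT_NCD the medians of these roles were -0.50, -0.46, -0.51, -0.16 and 0.25 in the same order. In KO_MCD against WT_MCD they were -0.27, -0.18, -0.18, 0.015 and -0.058. No difference between roles was tested.

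Other genes of the pathway, 58 in number, were taken as a second list. Of these 56 were matched and all 56 were tested, with 0 past the threshold in edgeR in any comparison. The median log2 fold change was -0.085 in WT_MCD against WT_NCD, -0.073 in KO_MCD against WT_MCD and 0.024 in KO_MCD against WT_NCD. At an unadjusted p under 0.05, 2 stood higher and 2 lower in WT_MCD against WT_NCD, 0 in KO_MCD against WT_MCD, and 1 higher and 2 lower in KO_MCD against WT_NCD. These counts at an unadjusted p were near or under the shares of all genes given above (6.0%, 3.25% and 8.97%). They are thus no result about the list. The groups stood apart for 12 lower and 10 higher in WT_MCD against WT_NCD (background 14.8% and 16.8%). The counts apart were 8 lower and 2 higher in KO_MCD against WT_MCD (background 9.66% and 8.37%). In KO_MCD against WT_NCD they were 17 lower and 9 higher (background 12.8% and 13.4%). The list was not tested as a set. Ptpn11, which encodes the phosphatase SHP-2, had 41.5, 61.2 and 62.0 CPM in KO_MCD, 70.1 and 44.0 CPM in WT_MCD, compared with 19.5 and 21.0 CPM in WT_NCD, with all 5 libraries on the deficient diet above both WT_NCD libraries. Its log2 fold change was 1.49 (SE 0.41) in WT_MCD against WT_NCD and 1.44 (SE 0.39) in KO_MCD against WT_NCD. In WT_MCD against WT_NCD the others were Skap2 at 1.40 (SE 0.58), the adaptor gene Grap2 at -0.78 (SE 0.33) and Rhoh at -0.92 (SE 0.35), which encodes a haematopoietic GTPase. Skap2, an adaptor also expressed in macrophages, was highest in WT_MCD replicate 2 at 509.7 CPM. In KO_MCD against WT_NCD the others were Sla at -1.15 (SE 0.31) and Dok2 at -1.16 (SE 0.31), both encoding adaptors that dampen signaling.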

How the data were processed

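The authors deposited raw counts, 1 whole-number column per library, for 53465 Ensembl gene IDs. The submitters' processing notes name the aligner HISAT2 2.1.0 and the build GRCm38. No source used here gives the counting tool, its annotation or strand setting, or the library kit. Columns were matched to samples by title. GENCODE for GRCm38 supplied names, coordinates and exon lengths, and 105 IDs had no entry there. Promoters came from RefSeq, with the entry nearest to the GENCODE gene start where a gene had several.

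The count test was edgeR's quasi-likelihood test (version 4.0.16, R 4.3.3), with a minimum count of 10 in filterByExpr, TMM scaling, a prior count of 0.125 and 1 coefficient for each group over all 7 libraries. DESeq2 1.42.0 was an alternative. The common dispersion of 0.833 corresponds to a biological coefficient of variation of 91.3%. A standard error is the size of the log2 fold change divided by the square root of its F statistic. Libraries of a group differed by more than sampling noise, with chi-square over its degrees of freedom at 88.7 or above. CPM used TMM-scaled library sizes, and genes were compared with each other only per kb of exon. In CD3 scaling the summed counts of Cd3d, Cd3e and Cd3g served as the library size. The edgeR test was run on simulated counts, with changes added to genes drawn from all tested genes. At the threshold it recovered 0 to 2% of 2-fold changes and 2 to 14% of 4-fold changes. At 16-fold it recovered 48 to 54%, with 1 to 5 false calls per comparison. The median standard error over all tested genes was 0.85 in WT_MCD against WT_NCD, 0.78 in KO_MCD against WT_MCD and 0.79 in KO_MCD against WT_NCD. Over the members it was 0.41, 0.37 and 0.37 in the same order. The recovery rates thus describe all tested genes, and recovery among the members was not measured. Over all genes, a count of 0 past the threshold is therefore no evidence of equal levels. For the members it is not read as such evidence either, because their recovery is unknown.

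The members and lists were chosen with earlier results of these data known. The rule for values in every library named the receptor chains, Cd4, Lck, Zap70, Lat, any member past the threshold and, per comparison, the 5 members with the smallest p in each direction. Cd5, Ptprc and Skap1 were added after their values were seen. Of the other pathway genes it named those at an unadjusted p under 0.05. Alternatives were other scalings, low-count filters, a fit of only the 2 groups compared, a block for the replicate number, and leaving out each library. A crossed block was added after the data were seen.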

Additional observations from a re-analysis of the deposited data

How the results depend on the processing

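No member passed an edgeR adjusted p of 0.05 under any setting of edgeR run here. Genes called over the whole table were 0 in each comparison, but 54, 1 and 140 without a low-count filter and 314, 50 and 562 with DESeq2, for WT_MCD against WT_NCD, KO_MCD against WT_MCD and KO_MCD against WT_NCD in that order. DESeq2 called 3 members, in the last of these. The cause was not tested.

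In KO_MCD against WT_MCD several receptor genes lay so near 0 that their sign changed. Cd3g was -0.0017 and became 0.011 with RLE scaling, 0.090 with total count scaling, 0.0043 with a filter of 1 CPM in 2 libraries, 0.011 with DESeq2 and 0.00019 with the 2 groups alone. Cd3d became 0.087 with total count scaling. With CD3 scaling Trbc1 was -0.030 and Trbc2 -0.056. With total count scaling the median of all genes in this comparison was 0.073 and that of the members 0.013.

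CD3 scaling gave 0 lower and 5 higher members in WT_MCD against WT_NCD (all genes 0.291% and 11.5%), a members' median of 0.20, and 0.35 for Trac, 0.13 for Cd3e, 0.20 for Cd4, 0.17 for Lck, 0.26 for Zap70 and 0.10 for Lat. In KO_MCD against WT_NCD it gave 0 lower and 4 higher members (all genes 1.33% and 10%), a median of 0.011 and 0.56 for Cd3e. The CD3 genes set this scale, so its construction fixes only their sum. Other members could still lie on either side, with Dgka at -0.44, Cd27 at -0.39 and Trbc2 at -0.35 in WT_MCD against WT_NCD. What moved the others above 0 was not tested.

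The 2 groups alone gave 2 lower and 0 higher members at an unadjusted p under 0.05 in WT_MCD against WT_NCD, and 17 lower in KO_MCD against WT_NCD. The labels do not say whether equal replicate numbers mark pairs. Deviations of same-numbered libraries correlated at -0.10 between WT_MCD and WT_NCD, and at -0.017 and -0.075 between KO_MCD and WT_MCD. Between KO_MCD and WT_NCD they correlated at 0.030 and -0.046. In a group of 2 libraries the deviations are mirror images, so these values cannot show whether libraries were paired. The replicate block gave 3 lower and 0 higher members in WT_MCD against WT_NCD, 1 lower (Trat1) in KO_MCD against WT_MCD, and -0.088 for Trbc2 there. A crossed block on WT_MCD and WT_NCD alone, added after the data were seen, called 0 genes, with 4 members lower at an unadjusted p under 0.05.

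Leaving out 1 library at a time gave 1 to 15 lower and 0 to 2 higher members in WT_MCD against WT_NCD, with a median of -0.96 to -0.059. Log2 fold changes there ran over -1.07 to 0.16 for Trac, -1.24 to 0.071 for Cd3e, -1.26 to 0.33 for Cd4, -0.012 to 1.05 for Ptpn6, -1.11 to -0.018 for Lck, -0.97 to -0.050 for Zap70, -1.25 to -0.035 for Lat, -1.11 to -0.44 for Cd3d, -1.04 to -0.49 for Cd3g, -1.43 to -0.50 for Cd247, -1.38 to -0.59 for Trbc1, -1.59 to -0.64 for Cd27, 0.58 to 1.80 for Nfatc2 and 0.026 to 1.47 for Themis. In KO_MCD against WT_MCD it gave 0 to 3 lower and 0 to 1 higher members and a median of -0.31 to 0.37. Log2 fold changes there ran over -0.83 to 0.41 for Trac, -0.23 to 0.40 for Trbc1, -0.21 to 0.36 for Trbc2, -0.35 to 0.19 for Cd3d, -0.25 to 0.30 for Cd3g, -0.47 to 0.36 for Cd247, -0.71 to 0.44 for Cd4, -0.68 to 0.44 for Lck, -0.57 to 0.38 for Zap70, -0.66 to 0.57 for Lat, -0.077 to 1.33 for Nfatc3 and -0.19 to 0.73 for Rasgrp1. In KO_MCD against WT_NCD it gave 2 to 17 lower and 0 to 1 higher members and a median of -0.72 to -0.39, with -0.66 to 0.51 for Cd3e and -1.40 to 0.072 for Cd4. A group left with 1 library was assumed to vary like the others. Over all alternatives, values of named members kept their direction and side of the threshold in 275 of 285 cases for WT_MCD against WT_NCD. They did so in 273 of 300 for KO_MCD against WT_MCD and 294 of 300 for KO_MCD against WT_NCD. No member passed in any edgeR setting, so these counts mostly reflect direction, and many settings differ little. Named members that never changed direction were 12 of 19, 8 of 20 and 18 of 20 in the same order. With 2 or 3 libraries per group, the spread between libraries rather than read depth limits precision.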
